A study of Mus musculus with 4 samples.

Results

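The expression of 10 genes of WNT signalling was followed across the cell types of mouse gonads and mesonephros around the time of sex determination. The genes were chosen by name from a table of 21495 genes: the ligands Wnt4 and Wnt6, the secreted enhancer Rspo1, its receptors Lgr4 and Lgr5, the receptor ligases Znrf3 and Rnf43, the effector Ctnnb1 (beta-catenin), its DNA-binding partner Lef1 and its feedback target Axin2. All 10 were present in the table.

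WNT ligands bind Frizzled receptors and thereby protect beta-catenin from a destruction complex that contains AXIN proteins. R-spondins bind LGR receptors and clear the ligases ZNRF3 and RNF43 from the cell surface, which leaves more Frizzled receptor in place and prolongs the signal. Beta-catenin then joins LEF1 or TCF proteins at target genes such as Axin2, Lef1, Znrf3, Rnf43 and Lgr5, several of which damp the signal in turn. In the bipotential gonad this pathway, led by RSPO1 and WNT4, promotes ovarian fate, and it acts against the SRY and SOX9 programme of the testis.

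Gonads with their mesonephros had been profiled by droplet-based 3′ single-cell RNA-seq in 4 samples, 1 per group. Both control groups, the XY control and the XX control, were taken at E11.5. XY embryos without miR-17~92 were taken at E11.5, called the E11.5 KO, and at E11.75, called the E11.75 KO, and plots label both with XY KO and the stage. KO embryos were homozygous for a CRISPR deletion of the miR-17~92 microRNA cluster in XY G4 embryonic stem cells, a C57BL/6J and 129 hybrid line, and were made by tetraploid aggregation, in which the embryo proper derives from the stem cells. The XY control was made by the same route from unedited G4 cells, whereas XX controls were bred from C57BL/6J males and 129 females. Several pairs of gonads were pooled per sample and fixed in methanol, and the labels give the strain C57BL/6 x 129S4/SvJae for all groups. No group had a replicate, so no p-value is given and a difference can also be one between pools. All intervals are exact 95% intervals and cover counting error only. The E11.75 KO had no control of its own stage, so that stage and deletion cannot be told apart in it, and the XX control differed from the XY samples in breeding, depth and cell filter, which cannot be told apart from sex.

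The annotation held 52745 cells in 13 deposited types, with a median of 3893 to 4763 UMIs (unique molecular identifiers, counted mRNA copies) per cell in the XY samples and 15509 in the XX control. Cells deposited as bipotential progenitors are called pre-supporting cells here, supporting cells Sertoli cells, and epithelial cells coelomic epithelium. SLCs are supporting-like cells at the border of the mesonephros. Pre-supporting cells numbered 1641 in the XY control, 1084 in the E11.5 KO, 924 in the E11.75 KO and 352 in the XX control. Sertoli cells numbered 752, 24, 168 and 2, and types with fewer than 50 cells in a sample were left out. Marker genes matched the deposited names with 3 exceptions: the pre-supporting markers were as high in Sertoli cells of the XY control and the E11.75 KO as in pre-supporting cells, and the immune markers of the XY control summed to 350.8 CPM against 1486 in the E11.5 KO. The third is the mesonephric epithelium, named so as deposited, in which the 5 markers of mesonephric tubules and epithelium summed to 37.4 to 50.5 CPM, below the 393.2 to 477.0 CPM of germ cells. Mir17hg, the transcript that hosts the microRNAs, stood at 19.8 and 18.2 CPM in the XY and XX controls and at 155.8 and 161.1 CPM in the KO samples at E11.5 and E11.75, and whether its counted 3′ end lies inside the deletion is not given in the sources used here.

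The microRNAs of the deleted cluster are shown because their seed (bases 2 to 8, in capitals) decides which mRNAs they can pair with. In mm10 the cluster lies on chromosome 14, plus strand, with mature sequences between 115043684 and 115044496.
miR-17-5p: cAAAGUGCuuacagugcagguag
miR-20a-5p: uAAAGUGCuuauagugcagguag
miR-18a-5p: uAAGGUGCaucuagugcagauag
miR-19a-3p: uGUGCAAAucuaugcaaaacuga
miR-19b-3p: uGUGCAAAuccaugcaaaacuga
miR-92a-3p: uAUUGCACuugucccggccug
miR-17-5p and miR-20a-5p share 1 seed and miR-19a-3p and miR-19b-3p another, so that the cluster holds members of 4 seed families. Other microRNA clusters of the mouse carry seeds of these families too, those of miR-18 and miR-19 among them, so the deletion does not remove the families.

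None of the 10 genes held an 8mer site, the longest seed match, for any of these families in its annotated 3′ UTR. Matches of 7 bases were found in 3 genes: 1 for miR-19 in Lgr4, 2 for miR-19 in Znrf3 and, for miR-92, in Ctnnb1. Those for miR-19 match seed bases 2 to 7 and end in an A, so that seed base 8 is not matched. The printed match in Ctnnb1 covers seed bases 2 to 8. The mature sequences are from RefSeq and the 3′ UTRs from GENCODE M21. Not every match is printed. Sites are shown because they are where the deletion could act directly on a member, and are printed 5′ to 3′ on the mRNA strand with the matching bases in capitals, and with the mm10 position of those bases.
Lgr4 miR-19 (chr2:110013193-110013199, plus strand): gtttttgttcaTTGCACAttgctc
Znrf3 miR-19, first (chr11:5277992-5277998, minus strand): cagggtccagaTTGCACAtttgag
Znrf3 miR-19, second (chr11:5276441-5276447, minus strand): atacatgataaTTGCACAcagatt
Ctnnb1 miR-92 (chr9:120951104-120951110, plus strand): acttgccacacGTGCAATtcctga
No match of this length was held by the annotated 3′ UTR of Wnt4, Wnt6, Rspo1, Lgr5, Rnf43, Lef1 or Axin2. A match is a description of letters, and no binding was measured.

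Levels are given as CPM, the UMIs of a gene scaled to a total of 1000000 UMIs, summed over the cells of 1 type in 1 sample. They are compared between types and samples for the same gene, and not between genes.

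**Figure D1:**
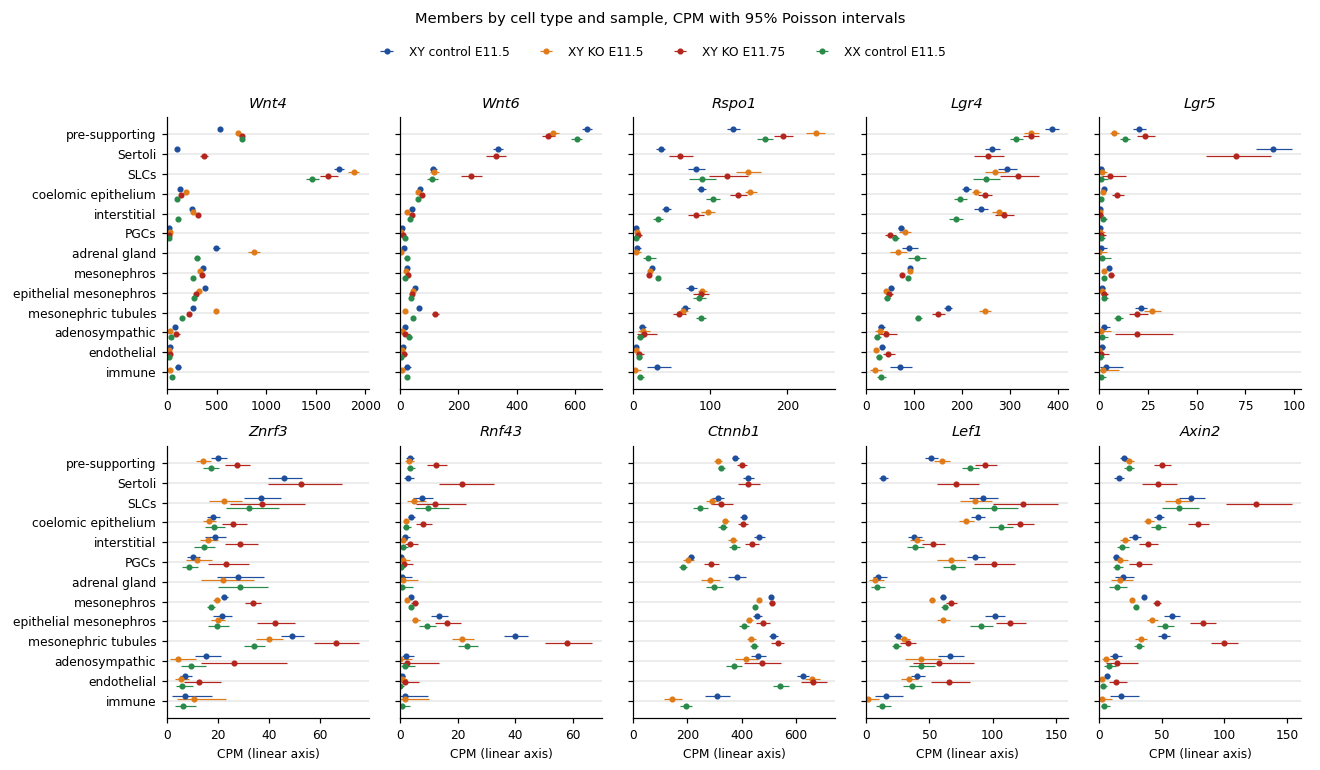
CPM (x axes, linear, each panel with its own range) of the 10 genes in 13 cell types (y axis) for the 4 samples, with 95% Poisson intervals as bars; types with fewer than 50 cells in a sample are not drawn. Wnt4 peaks in SLCs at 1463 to 1880 CPM, Wnt6 in pre-supporting cells, Lgr5 in Sertoli cells and Rnf43 in mesonephric tubules.

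Wnt4 (chromosome 4, 137277489 to 137299726, plus strand) encodes the WNT ligand needed for ovary development. Its CPM was highest in SLCs, at 1733 in the XY control, 1880 in the E11.5 KO, 1627 in the E11.75 KO and 1463 in the XX control. SLCs stood clear of every other type in every sample, and they also led by their remaining markers Pax8, Ncam1 and Nr5a1, of which Wnt4 is no part. Pre-supporting cells had the next highest median over samples, with 538.9 CPM (interval 522.8 to 555.4) in the XY control, 711.7 (690.6 to 733.3) in the E11.5 KO, 753.3 (728.4 to 778.8) in the E11.75 KO and 756.2 (735.6 to 777.2) in the XX control. The XY control was thus the lowest of the 4 samples in pre-supporting cells, with an interval clear of the other 3. Adrenal cells overlapped them, at 495.9 CPM in the XY control, 875.5 in the E11.5 KO and 301.5 in the XX control, so that they stood above pre-supporting cells in the E11.5 KO and below in the controls. Mesonephros and mesonephric epithelium lay between 259.9 and 378.5 CPM. Germ cells and endothelium had the lowest medians, at 18.0 to 27.9 and 18.7 to 34.6 CPM.

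Wnt6 (chromosome 1, 74771892 to 74785322, plus strand), another WNT ligand, had its highest CPM in pre-supporting cells: 642.0 in the XY control, 525.9 in the E11.5 KO, 509.2 in the E11.75 KO and 606.4 in the XX control. Both KO samples lay below both controls. Among the deposited types Sertoli cells followed at 335.4 CPM in the XY control and 328.3 in the E11.75 KO. The deposited cluster 1 of mesonephric tubules, named here after its values were seen, held 338.4 CPM (305.1 to 374.4) in the E11.75 KO. It held 171.8 in the XY control, 93.0 in the E11.5 KO and 126.0 in the XX control. SLCs held 108.9 to 244.3 CPM, highest in the E11.75 KO, and coelomic epithelium 60.1 to 73.6.

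Rspo1 (chromosome 4, 124986430 to 125009099, plus strand), which encodes R-spondin 1, had its highest median over samples in pre-supporting cells. In pre-supporting cells it stood at 130.1 CPM in the XY control, 236.8 in the E11.5 KO, 194.8 in the E11.75 KO and 170.9 in the XX control, and the 4 intervals did not overlap. Coelomic epithelium (88.4 to 152.2 CPM) and SLCs (82.0 to 149.3 CPM) overlapped that range. Mesonephric epithelium (75.5 to 89.7 CPM) and mesonephric tubules (60.0 to 87.4 CPM) overlapped the range of SLCs. The deposited tubule cluster 2 is named here after its values were seen. It held 126.9 CPM in the XY control, 40.2 in the E11.5 KO, 149.8 in the E11.75 KO and 174.6 in the XX control. Endothelium, adrenal cells and germ cells, with medians of 5.58, 5.13 and 4.11 CPM, made up its low end.

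The receptors differed from each other in breadth. Lgr4 (chromosome 2, 109917647 to 110014257, plus strand) was highest among the deposited types in pre-supporting cells. They held 388.0 CPM in the XY control, 345.2 in the E11.5 KO, 344.1 in the E11.75 KO and 313.5 in the XX control. The range of SLCs (249.3 to 317.7) overlapped theirs. Sertoli cells (255.2 and 263.2 CPM), interstitial cells (186.7 to 288.6) and coelomic epithelium (196.7 to 247.6) came next. Tubule cluster 3, named here after its values were seen, held 344.1 CPM of Lgr4 (310.8 to 379.9) in the E11.75 KO, level with pre-supporting cells. It held 283.0 in the XY control, 309.1 in the E11.5 KO and 209.65 in the XX control. Lgr5 (chromosome 10, 115450311 to 115587780, minus strand) was highest among the deposited types in Sertoli cells, which held 89.1 CPM (80.2 to 98.6) in the XY control and 70.1 (54.9 to 88.3) in the E11.75 KO, while mesonephric tubules held 9.75 to 27.1. Mesonephros as a whole held 2.19 to 6.08 CPM. Its deposited cluster 4, with 4.43% to 8.72% of its cells and named here after its values were seen, held 60.8 CPM in the XY control, 24.1 in the E11.5 KO, 72.6 in the E11.75 KO and 45.01 in the XX control, and in the E11.75 KO its interval overlapped that of Sertoli cells. Pre-supporting cells held 20.5 CPM in the XY control, 7.46 in the E11.5 KO, 23.5 in the E11.75 KO and 13.0 in the XX control. In SLCs, germ cells, interstitial cells and endothelium it did not exceed 5.34 CPM in any sample.

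The ligases that remove Frizzled receptors from the membrane were highest outside the pre-supporting cells. Znrf3 (chromosome 11, 5276324 to 5444847, minus strand) was highest in mesonephric tubules, at 49.1 CPM in the XY control, 40.0 in the E11.5 KO, 66.2 in the E11.75 KO and 34.3 in the XX control, and in Sertoli cells, at 46.0 in the XY control and 52.6 in the E11.75 KO, with overlapping intervals in both samples that had enough Sertoli cells. Rnf43 (chromosome 11, 87662722 to 87735539, plus strand) was highest in mesonephric tubules at 39.9 CPM in the XY control, 21.5 in the E11.5 KO, 57.9 in the E11.75 KO and 23.4 in the XX control. In pre-supporting cells Rnf43 gave 26, 18, 57 and 24 UMIs in the XY control, the E11.5 KO, the E11.75 KO and the XX control, too few for the comparisons that follow.

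Ctnnb1 (chromosome 9, 120929216 to 120960507, plus strand) encodes a protein that also serves cell adhesion, and it was detected in all types. Endothelium was highest at 543.7 to 665.3 CPM, and immune and germ cells were lowest at 144.0 to 307.8 and 184.1 to 288.2 CPM. In pre-supporting cells the 4 samples held 377.0, 313.1, 401.6 and 325.3 CPM in the order XY control, the E11.5 KO, the E11.75 KO and XX control.

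Lef1 (chromosome 3, 131110471 to 131224356, plus strand) and Axin2 (chromosome 11, 108920349 to 108950783, plus strand) are read as outputs of beta-catenin. Among the deposited types, Lef1 ranges of coelomic epithelium (79.2 to 121.7 CPM), SLCs (86.2 to 124.1) and mesonephric epithelium (60.9 to 113.7) overlapped at the top. Germ cells (67.0 to 100.8) overlapped them. Cluster 4 of the mesonephros, named here after its values were seen, lay above these ranges. It held 142.3 CPM of Lef1 in the XY control, 126.7 in the E11.5 KO, 140.2 in the E11.75 KO and 191.1 in the XX control. In pre-supporting cells Lef1 stood at 51.5 CPM in the XY control, 59.9 in the E11.5 KO, 94.4 in the E11.75 KO and 82.4 in the XX control. Among the deposited types Axin2 was highest in SLCs, at 73.5, 62.6, 125.5 and 63.7 CPM in the same order. Tubule cluster 1, named here after its values were seen, held 86.1, 87.7, 183.6 and 67.3 CPM. It lay above SLCs in each sample, with intervals apart only in the E11.75 KO. Cluster 4 of the mesonephros held 89.4, 79.4, 108.4 and 68.9 CPM of Axin2. This was below SLCs only in the E11.75 KO, with overlapping intervals in each sample. In pre-supporting cells Axin2 held 19.7 (16.7 to 23.0), 23.6 (19.8 to 27.8), 50.3 (44.1 to 57.3) and 23.6 (20.1 to 27.5). The E11.75 KO was the highest sample for Axin2 in pre-supporting cells, and the other 3 overlapped one another.

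The pre-supporting cells, from which Sertoli or granulosa cells arise, were then compared between samples. A ratio is the log2 ratio of CPM with a prior count of 0.5, minus the median of all genes that reached 100 UMIs in the 2 samples together. That median was -0.09 in the E11.5 KO over the XY control, 0.19 in the E11.75 KO, -0.11 in the XX control and 0.28 in the E11.75 KO over the E11.5 KO. A gene is called higher or lower where this ratio reached 0.5 in size. The first 3 comparisons share the XY control sample, so their values are given side by side and not as independent results. Rnf43 was under the minimum in each, which left 9 genes. In bulk sums of a type, fewer expressing cells and less RNA per cell cannot be told apart.

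In the E11.5 KO over the XY control, 1 of 9 genes was higher and 1 was lower, where 5.9% of all tested genes were higher and 7.54% lower. Rspo1 was higher by 0.96 (0.84 to 1.07), which is 1.94-fold relative to the median gene. Its runs, technical repeats of the same pool, gave 127.7 and 132.8 CPM in the XY control and 241.4 and 232.7 in the E11.5 KO, so the samples did not overlap. Lgr5 was lower at -1.36 (-1.88 to -0.88), with 45 UMIs against 162, and its runs gave 22.6 and 18.3 CPM in the XY control and 9.06 and 6.02 in the E11.5 KO. Wnt4 stood at 0.49 (0.43 to 0.56), just under the threshold, and at 0.53 relative to genes with 3′ UTRs of like length. Wnt6 at -0.20, Ctnnb1 at -0.18, Lgr4 at -0.08, Znrf3 at -0.42, Lef1 at 0.31 and Axin2 at 0.35 stayed between the thresholds, and the interval of Lgr4 held 0.

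In the E11.75 KO over the XY control, 2 of 9 were higher and 1 was lower, beside 12.8% and 18.1% of all tested genes. The higher genes were the beta-catenin outputs Axin2 at 1.17 (0.87 to 1.47), 2.25-fold relative to the median gene, and Lef1 at 0.69 (0.49 to 0.89). Wnt6 was lower at -0.52 (-0.59 to -0.45), close to the threshold, and stood at -0.46 when run 2 alone of the XY control was used. Wnt4 at 0.30, Rspo1 at 0.40, Lgr4 at -0.36, Lgr5 at 0.01, Znrf3 at 0.26 and Ctnnb1 at -0.09 were between. In this sample the ratio moved with the length of the 3′ UTR, so each value was also taken relative to genes of like 3′ UTR length, in 10 classes of equal gene number. That gave 1.15 for Axin2, 0.67 for Lef1, -0.40 for Wnt6 and 0.64 for Rspo1, which put Wnt6 inside and Rspo1 outside the threshold. Rnf43, with 57 UMIs against 26, had a ratio of 1.71 (1.03 to 2.46) and was not counted.

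In the XX control over the XY control, 2 of 9 were higher and 1 was lower, beside 4.6% and 7.46% of all tested genes. Lef1 at 0.78 (0.60 to 0.97) and Wnt4 at 0.60 (0.54 to 0.65) were higher, and Rspo1 stood just under the threshold at 0.50 (0.38 to 0.62). Lgr5 was lower at -0.55 (-0.95 to -0.17), with 88 UMIs against 162, but this call rested on 1 run. Run 1 gave 10.6 CPM in the XX control against 22.6 in the XY control, a ratio of -0.97, whereas run 2 gave 15.3 against 18.3, a ratio of -0.18. It was also inside the threshold relative to genes of like 3′ UTR length (-0.49), by the mean of CPM over cells (-0.43) and in cells under 30000 UMIs (-0.38). Without centring Wnt4 stood at 0.49. Wnt6 at 0.02, Znrf3 at -0.13, Ctnnb1 at -0.11, Lgr4 at -0.20 and Axin2 at 0.37 were between.

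**Figure D2:**
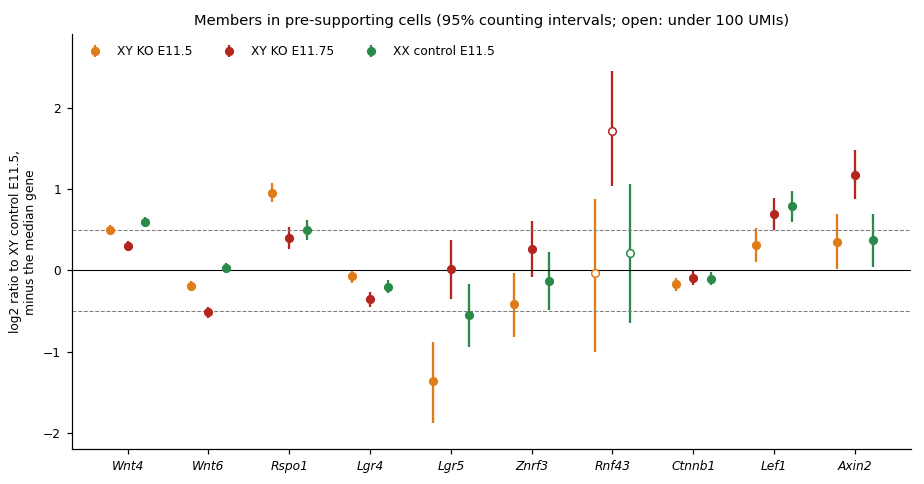
Log2 ratio of each gene in pre-supporting cells over the XY control, minus the median gene (y axis), for the E11.5 KO, the E11.75 KO and XX control E11.5, with 95% counting intervals; dashed lines mark 0.5 in size and open symbols genes under 100 UMIs over both samples. Rspo1 stands highest in the E11.5 KO at 0.96 and Axin2 among the counted genes in the E11.75 KO at 1.17, whereas Lgr5 is at -1.36 in the E11.5 KO and 0.01 in the E11.75 KO.

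Between the KO samples, the E11.75 KO over the E11.5 KO, 3 of 9 genes were higher and 1 was lower, beside 14% and 19.4% of all tested genes. Lgr5 was higher by 1.36 (0.86 to 1.91), Axin2 by 0.81 (0.50 to 1.12) and Znrf3 by 0.67 (0.27 to 1.09). Rspo1 was lower at -0.57 (-0.69 to -0.44). Relative to genes of like 3′ UTR length Rspo1 stood at -0.25 and Znrf3 at 0.45, both inside the threshold, and Lgr5 at 1.24 and Axin2 at 0.78.

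Sertoli markers in pre-supporting cells also differed between the samples. Sox9, the gene that drives Sertoli fate, stood at 199.6 CPM in pre-supporting cells of the XY control, 20.1 in the E11.5 KO, 88.0 in the E11.75 KO and 9.29 in the XX control, and the 5 Sertoli markers together at 217.0, 29.7, 101.1 and 13.7 CPM with none at 0. When cells with a Sox9 UMI were left out (27.7%, 7.75%, 17.7% and 9.94% of pre-supporting cells in the order used above), a choice made after seeing the data, the ratio of Wnt4 over the XY control was 0.30 in the E11.5 KO, 0.12 in the E11.75 KO and 0.42 in the XX control. Rspo1 then stood at 0.84, 0.26 and 0.42. The cells left out depended on depth, since at 3000 UMIs per cell a Sox9 UMI was found in 24.6%, 4.95%, 13.7% and 1.15%. Axin2 in the E11.75 KO was 1.01 without these cells, and Lef1 was 0.69 there and 0.72 in the XX control. Lgr5 was -1.14 in the E11.5 KO and -0.03 in the XX control. The part of cells with a Sox9 UMI in the differences between samples was not tested.

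In the XY control, Sertoli cells were set against pre-supporting cells of the same sample. Of 9 genes 5 were lower and 2 higher, beside 10.7% and 13.1% of all tested genes. Wnt4 was lower at -2.42 (-2.57 to -2.28), from 538.9 to 99.7 CPM, Lef1 at -1.96 (-2.41 to -1.56), Rspo1 at -1.85 (-2.11 to -1.61), Wnt6 at -0.92 and Lgr4 at -0.55. Lgr5 was higher at 2.13 (1.86 to 2.40) and Znrf3 at 1.20 (0.89 to 1.52). Ctnnb1 at 0.18 and Axin2 at -0.33 were between. The clusters were named by the authors from expression, so these contrasts describe the clusters and test nothing.

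The same contrast within the E11.75 KO gave 3 lower and 2 higher of 9, beside 9% and 9.81%. Rspo1 at -1.71, Lgr5 at 1.55 (1.10 to 1.99) and Znrf3 at 0.92 had intervals that overlapped those of the XY control, where Lgr5 stood at 2.13. Wnt4 at -1.05 (-1.21 to -0.90) and Lef1 at -0.43 (-0.81 to -0.08) were closer to 0 than in the XY control, and their intervals did not overlap those of the XY control. Directly between Sertoli cells, the E11.75 KO over the XY control, 4 of 9 were higher and none lower, beside 16.3% and 18.5% of all tested genes. Wnt4 stood at 371.1 against 99.7 CPM, a ratio of 1.75 (1.55 to 1.96), Lef1 at 71.1 against 13.0 CPM or 2.31 (1.78 to 2.84), Axin2 at 46.8 against 15.4 CPM or 1.46 (0.89 to 2.02), and Rspo1 at 60.4 against 35.6 CPM or 0.63 (0.17 to 1.06). Lgr5 was at -0.48 (-0.87 to -0.12), and at -0.56 relative to genes of like 3′ UTR length. Sox9 stood at 790.0 CPM in these Sertoli cells against 944.1 in the XY control, and the 5 Sertoli markers at 1170 against 1570 CPM. The 24 Sertoli cells of the E11.5 KO were too few to describe.

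**Figure D3:**
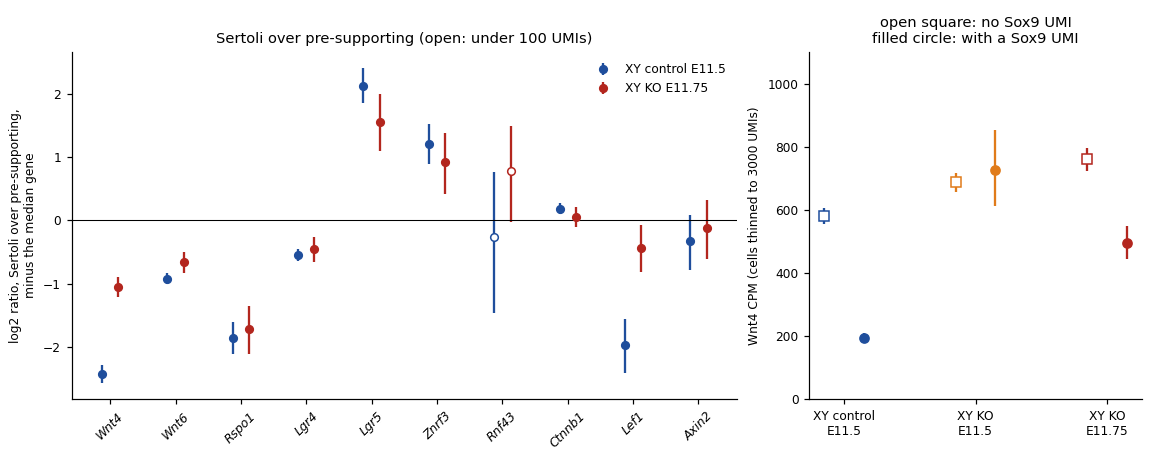
Left, log2 ratio of Sertoli over pre-supporting cells minus the median gene (y axis) for each gene in the XY control and the E11.75 KO, with open symbols under 100 UMIs; right, Wnt4 CPM (y axis) in pre-supporting and Sertoli cells with and without a Sox9 UMI after thinning to 3000 UMIs per cell, with 95% counting intervals throughout. Wnt4 is at -2.42 in the XY control and -1.05 in the E11.75 KO, and the gap between cells with and without a Sox9 UMI is 192.4 against 580.3 CPM in the XY control.

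To read Wnt4 beside Sox9 in the same cells, pre-supporting and Sertoli cells were pooled within a sample, thinned at random to 3000 UMIs each and split by a Sox9 UMI. In the XY control, 977 cells with a Sox9 UMI held 192.4 CPM of Wnt4 and 1192 cells without held 580.3, a log2 ratio of -1.59 (-1.73 to -1.46). In the E11.75 KO, 243 cells with a Sox9 UMI held 495.2 CPM and 751 without held 760.3, a ratio of -0.62 (-0.79 to -0.45). In the E11.5 KO, 67 cells with a Sox9 UMI held 726.4 CPM and 987 without held 687.3, a ratio of 0.08 (-0.17 to 0.32), but -0.56 after thinning to 5000 UMIs and -0.26 with no thinning, so its direction hung on the thinning. The XX control had 4 cells with a Sox9 UMI. Of the cells with a Sox9 UMI, 616 were Sertoli and 361 pre-supporting cells in the XY control, and 129 and 114 in the E11.75 KO. In the E11.5 KO 51 were pre-supporting cells. The clusters were named from expression, so this split and the contrast of clusters given above cannot be told apart. Wnt4 was lowest in Sox9-positive cells of the XY control. Lgr5 ran the other way, with 72.7 against 16.5 CPM (2.13, 1.72 to 2.58) in the XY control and 57.6 against 23.5 CPM (1.30, 0.67 to 1.90) in the E11.75 KO.

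Shares of cells with a Wnt4 UMI gave the order of its CPM in pre-supporting cells, with overlapping intervals for the KO samples in both. Centred on the median gene, the E11.75 KO stood at -0.20 over the E11.5 KO. After thinning to 3000 UMIs a Wnt4 UMI was found in 61.1% (58.6 to 63.6) of 1468 pre-supporting cells of the XY control, 70.3% (67.4 to 73.1) of 1030 in the E11.5 KO, 72.4% (69.3 to 75.5) of 831 in the E11.75 KO and 82.5% (78.1 to 86.4) of 349 in the XX control. Without thinning the shares were 69.5%, 79.2%, 80.5% and 98.6%, at median depths of 4522, 5349, 4661 and 17498.5 UMIs. Thinning left out 173, 54, 93 and 3 cells. Immune cells, which should lack the gene, had a Wnt4 UMI in 19.6% (9.82 to 33.1) of 51 cells of the XY control, 7.81% of 64 of the E11.5 KO and 10.4% of 67 of the XX control, at median depths of 1488, 7040 and 18870.5 UMIs before thinning. Germ cells, added after seeing that the gene was near its lowest there, had a Wnt4 UMI in 5.22%, 5.70%, 4.64% and 3.57% of cells at median depths of 11990.5, 12156, 9279.5 and 40644 UMIs. In Sertoli cells the share was 19.1% (16.3 to 22.2) of 701 in the XY control and 52.1% (44.2 to 60.0) of 163 in the E11.75 KO, both above the germ cells and the 7.04% (5.14 to 9.36) of 611 endothelial cells of the XY control. Against the immune cells of the XY control its Sertoli cells were not told apart, by share or by level, since their 99.7 CPM lay within the interval of those immune cells (106.6 CPM, 81.7 to 136.7). The immune cells were few and shallow there and had low marker levels, as given above.

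An Lgr5 UMI was found in 4.84% (3.80 to 6.06) of pre-supporting cells of the XY control, 1.55% (0.89 to 2.51) in the E11.5 KO, 5.90% (4.39 to 7.72) in the E11.75 KO and 3.15% (1.58 to 5.57) in the XX control, and in 7.74%, 3.14%, 8.01% and 13.6% without thinning. The E11.5 KO lay below the XY control and the E11.75 KO with no overlap at 3000 UMIs. At 2000 UMIs it held 1.78% (1.07 to 2.76), which overlapped the 3.74% (2.61 to 5.19) of the E11.75 KO but not the 3.87% (2.98 to 4.93) of the XY control, and the XX control then held 1.14% (0.31 to 2.88). In Sertoli cells the share was 20.0% (17.1 to 23.1) in the XY control and 14.7% (9.67 to 21.1) in the E11.75 KO, which overlapped. Immune cells had an Lgr5 UMI in 1.96% (0.0496 to 10.4) of 51 cells of the XY control, in 1.49% of 67 of the XX control and in 0 of 64 of the E11.5 KO, which allows a share of up to 4.69%. That limit is the share of 3 cells, the exact upper limit is 5.60%, and both are too wide to compare with pre-supporting cells. Other types were added after seeing the data. In the E11.5 KO an Lgr5 UMI was found in 0.420% (0.169 to 0.863) of 1668 cells of coelomic epithelium and 0.0960% (0.00243 to 0.534) of 1042 interstitial cells, at median depths of 5192.5 and 4209 UMIs, and pre-supporting cells lay above the interstitial cells and the coelomic epithelium with no overlap. Their interval overlapped those of SLCs, at 0.457% (0.0553 to 1.64) of 438 cells, and of germ cells, at 0 of 158 (exact upper limit 2.31%, or 1.90% by 3 cells). Endothelium had an Lgr5 UMI in 0.327% of 611 cells of the XY control, at a median depth of 4796 UMIs, and in 0 of 276 in the E11.5 KO, which allows up to 1.09% by 3 cells (exact upper limit 1.33%).

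Axin2 was higher in the E11.75 KO well beyond the pre-supporting cells. Over the XY control its ratio was above that of the median gene in 9 of 9 types with enough UMIs and reached 0.5 in 6, with a median of 0.67 and a range from 0.23 to 1.46. Over the same pair of samples 7.56% of all tested genes were higher in mesonephric tubules, 9.99% in coelomic epithelium, 10.6% in mesonephros, 11.4% in mesonephric epithelium, 12% in interstitial cells, 12.2% in germ cells, 14.1% in SLCs and 16.3% in Sertoli cells, besides the 12.8% given above for pre-supporting cells. Over the E11.5 KO it reached 0.5 in 7 of 7 types, with a median of 0.76 and a range from 0.57 to 1.35. The share of all tested genes that did so was 9.56% in coelomic epithelium, 11.3% in mesonephric tubules, 13.7% in mesonephros, 14% in interstitial and in pre-supporting cells, 14.8% in mesonephric epithelium and 18% in SLCs. Both comparisons share the E11.75 KO. In the E11.5 KO over the XY control Axin2 had a median of -0.26 and was above the median gene in 2 of 8 types. In SLCs the level was 125.5 CPM (101.4 to 153.5) against 73.5 (63.9 to 84.2) in the XY control and 62.6 (52.6 to 74.0) in the E11.5 KO. Relative to genes of like 3′ UTR length the median over types was 0.61 over the XY control and 0.73 over the E11.5 KO, and each type stayed above 0. The E11.75 KO was a single library, and its median share of mitochondrial UMIs was 5.67% against 4.26% in the XY control. Their part in the result was not tested.

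The other outputs and feedback genes were read in the same way. Lef1 in the E11.75 KO was above the median gene in 9 of 11 types and reached 0.5 in 3: Sertoli cells at 2.31, pre-supporting cells at 0.69 and endothelium at 0.54. Beside the shares already given, 11.72% of all tested genes were higher in endothelium and 16.2% in adenosympathic cells. Znrf3 was above it in 8 of 9 types and reached 0.5 in 2, mesonephric epithelium at 0.85 and germ cells at 1.01. Relative to genes of like 3′ UTR length the median of Znrf3 over types went from 0.39 to 0.22, with 7 of 9 types above such genes. That of Lef1 went from 0.32 to 0.27. Rnf43 was measured in 3 types, with ratios from 0.13 to 0.40. Ctnnb1 itself stayed between -0.21 and 0.24 in 11 types.

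Over the E11.5 KO, Rnf43 reached 0.5 in 3 of 3 types, mesonephric epithelium at 1.39, mesonephric tubules at 1.19 and mesonephros at 0.79. The E11.5 KO itself stood below the XY control for Rnf43, with ratios from -1.27 to -0.52 in the 3 types measured. Znrf3 was above the median gene in 6 of 6 types and reached 0.5 in 4, from 0.54 in mesonephros to 0.89 in mesonephric epithelium. Lef1 was above it in 8 of 9 types and reached 0.5 in 2, endothelium at 0.78 and mesonephric epithelium at 0.69. Relative to genes of like 3′ UTR length the median of Znrf3 over types went from 0.55 to 0.35, and that of Lef1 from 0.36 to 0.33. Beside the shares already given, 15.3% of all tested genes were higher in endothelium and 10.8% in germ cells. Ctnnb1 reached 0.5 in none of 10 types, with a range from -0.16 to 0.34.

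**Figure D4:**
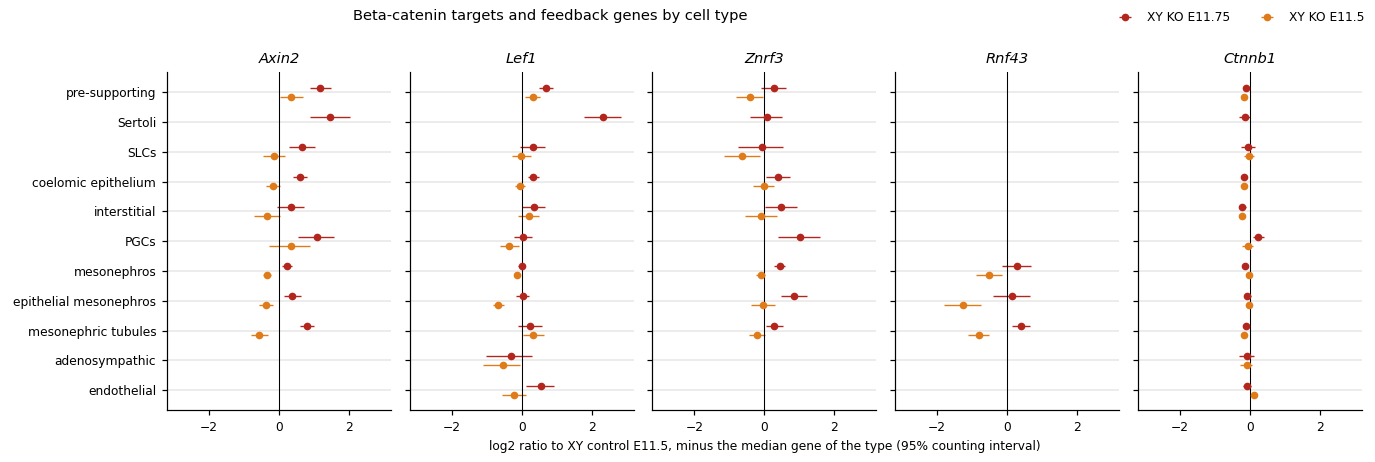
Log2 ratio over the XY control minus the median gene of each type (x axes) for Axin2, Lef1, Znrf3, Rnf43 and Ctnnb1 in the E11.75 KO and the E11.5 KO, by cell type (y axis), with 95% counting intervals; points need at least 100 UMIs over both samples. Axin2 in the E11.75 KO lies above 0 in all 9 types drawn, up to 1.46 in Sertoli cells, and Ctnnb1 stays within -0.21 and 0.24.

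Rspo1 in the E11.5 KO was higher in 4 of 7 types: interstitial cells at 1.31, pre-supporting cells at 0.96, SLCs at 0.95 and coelomic epithelium at 0.89. These are the somatic gonadal types with enough UMIs, and 4.49%, 5.9%, 4.22% and 4.17% of all tested genes were higher in them, in that order. The shares were 4.44% in mesonephric tubules, 3.94% in mesonephros and 3.23% in mesonephric epithelium. In mesonephros the ratio was -0.06. In mesonephric tubules it was 0.01 over clusters that differed from each other: cluster 1 held 4.80 CPM (2.62 to 8.06) in the XY control and 15.9 (5.85 to 34.7) in the E11.5 KO, cluster 2 held 126.9 (110.7 to 144.7) and 40.2 (30.1 to 52.6), and cluster 3 held 86.3 (77.8 to 95.4) and 76.3 (68.3 to 85.0). Cluster 2, named after its values were seen, was thus the one of these whose intervals did not overlap, with less Rspo1 in the E11.5 KO. In mesonephric epithelium it was 0.32. Interstitial cells held 42.5 CPM of Rspo1 in the XY control, 96.8 in the E11.5 KO, 81.1 in the E11.75 KO and 31.9 in the XX control. The XX control over the XY control stood at 0.35 in coelomic epithelium, -0.30 in interstitial cells and 0.21 in SLCs, and was higher in mesonephros at 0.56 and mesonephric tubules at 0.53, beside 4.12% and 6.75% of all tested genes.

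In mesonephric tubules several genes of the E11.5 KO differed from the XY control: Wnt4 at 1.01 and Lgr4 at 0.62 were higher, beside 4.44% of all tested genes, and Wnt6 at -2.02, Rnf43 at -0.81 and Axin2 at -0.57 were lower, beside 6.1%. The deposited annotation splits the tubules into 3 clusters, and the first held 31.3% of tubule cells in the XY control, 4.78% in the E11.5 KO, 33.4% in the E11.75 KO and 25.5% in the XX control. Within that cluster the E11.5 KO and the XY control had 85.0 and 81.3 CPM of Rnf43, 87.7 and 86.1 of Axin2, 55.8 and 55.2 of Wnt4, and 93.0 and 171.8 of Wnt6. This cluster had only 44 cells in the E11.5 KO, and Wnt6 was the one of these 4 genes whose intervals did not overlap. In the third cluster, 45.1% of tubule cells in the XY control and 65.7% in the E11.5 KO, Wnt4 stood at 355.2 against 563.3 CPM with intervals apart, Rnf43 at 27.6 against 22.3 and Axin2 at 40.3 against 34.6. How far the cluster shares set the values of the whole type was not tested.

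The rest of the pathway was read from a list of 82 further WNT genes in the table, of which 44 (43 in the XX comparison) had enough UMIs in pre-supporting cells. In the E11.5 KO over the XY control 6 were higher and 1 lower, with a median of 0.08. The background is the 5.9% and 7.54% given above. The highest were the ligands Wnt9a at 1.34 (16.4 to 38.8 CPM) and Wnt5a at 0.70 (22.7 to 34.7 CPM) and the co-receptor Ptk7 at 0.67 (54.5 to 81.6 CPM). The lowest were the corepressor Tle1 at -0.52, the beta-catenin partner Tcf7l2 at -0.44 and the DKK co-receptor Kremen1 at -0.44. By role, 2 of 4 ligands and 3 of 10 receptors were higher.

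In the E11.75 KO, 13 of 44 were higher and 1 lower, with a median of 0.24, or 0.20 relative to genes of like 3′ UTR length. That is 29.5% of the list, beside the 12.8% of all tested genes given above. The targets Sp5 at 1.95 (9.51 to 41.8 CPM) and Ccnd1, a cyclin, at 1.71 (42.9 to 159.5 CPM) and the ligand Wnt5a at 1.50 (22.7 to 73.2 CPM) were highest. Bambi, a decoy receptor of TGF-beta signalling, at -0.51, the beta-catenin inhibitor Ctnnbip1 at -0.49 and Amer1, of the destruction complex, at -0.46 were lowest. Among targets and feedback genes, where the list places Bambi, 4 of 6 were higher and 1 was lower, among receptors 5 of 10, and among destruction complex genes none of 7.

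In the XX control the list had 2 of 43 higher (4.65%), 8 lower (18.6%) and a median of -0.19. Of all tested genes 4.6% were higher and 7.46% lower, so the higher share was near the background. Ccnd1 at -1.18 (42.9 to 17.5 CPM), Bambi at -0.75 and Amer1 at -0.72 were lowest. The secreted inhibitor Sfrp2 at 0.57, Tcf7l2 at 0.33 and Ctnnbip1 at 0.32 were highest among genes with at least 200 UMIs. The other higher gene was Sp5 at 0.82, with 106 and 75 UMIs. Sfrp2 stood at -0.93 when cells of 30000 UMIs or more, 42 of the 352 XX cells, were left out, so its direction rested on those cells.

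**Figure D5:**
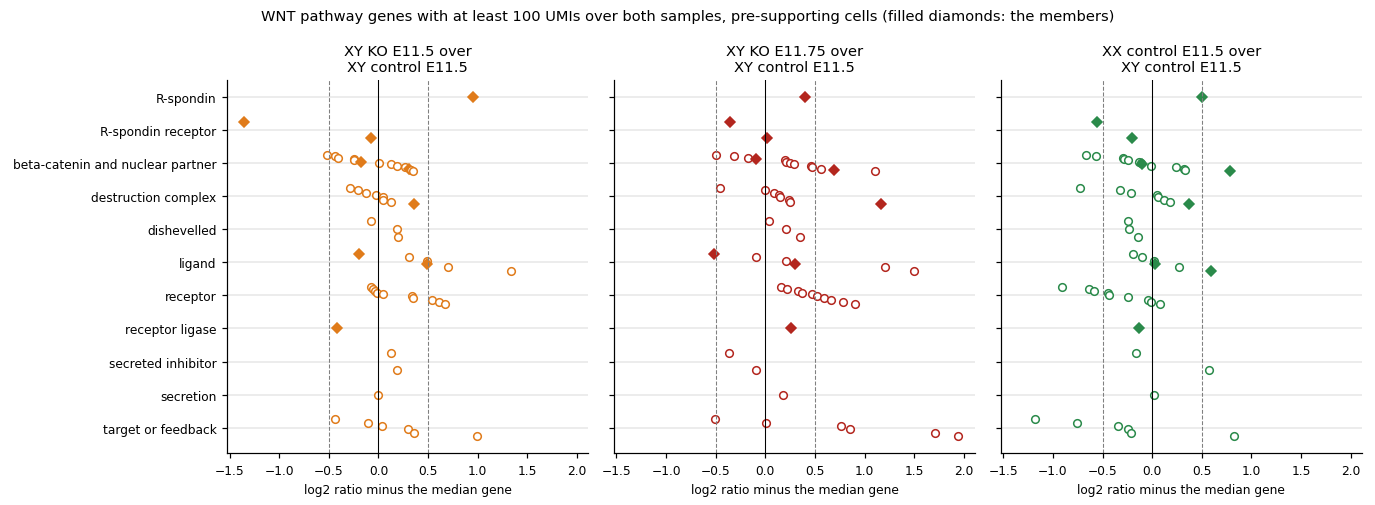
Log2 ratio minus the median gene (x axes) in pre-supporting cells for the WNT genes that reached 100 UMIs in both samples together, grouped by role (y axis, open circles), in the 3 comparisons over the XY control; filled diamonds are the members of the named set and dashed lines mark 0.5 in size. Sp5 reaches 1.95 in the E11.75 KO, and Ccnd1 stands at -1.18 in the XX control.

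Across the 48 sums of at least 50 cells, the genes most like each of the 10 were found by Pearson's r of log2(CPM + 1) among 11857 genes. The points share libraries and cell identities, so r is a description. Rspo1 was followed most closely by Emx2 (0.96), a homeobox gene of the urogenital ridge, then Rab11fip2 (0.92). Wnt6 was nearest to Gcc2 (0.89), Ctnnb1 to Amotl1 (0.90), Lgr4 to Epn3 (0.88) and Wnt4 to Epb41l1 (0.88). Axin2 was nearest to Ptgfrn (0.87), Rnf43 to Large2 (0.86), Znrf3 to Carmil1 (0.86), Lgr5 to Adamts16 (0.82) and Lef1 to Hmgxb4 (0.80). Among the members themselves Wnt6 and Rspo1 (0.81) and Znrf3 and Rnf43 (0.79) were the closest pairs. By Spearman's rho, 9 of the 30 nearest genes (3 per member) stayed among the 3 nearest.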

How the data were processed

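The authors aligned reads with Cell Ranger (version 6.1.1 in the submitters' processing notes) to mm10, filtered cells, removed doublets with DoubletFinder and named clusters after integration with Seurat. Counts are raw UMIs, 1 value for each gene in each cell, as deposited. The annotation names sample and cell type, with mitochondrial UMIs in percent as computed by the authors. XY cells were capped at 30000 UMIs and XX cells were not. The study's methods list the cell numbers of the KO samples in the reverse order to the annotation, which was followed here.

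UMIs were summed per deposited type and sample with numpy 2.4.6 and scipy 1.17.1. The 95% intervals are exact Poisson (CPM), Clopper-Pearson (shares) and binomial (log2 ratios) intervals. The calculation of the ratios, centred on the median gene, was checked on simulated counts with known changes. The median depth was 3893 to 15509 UMIs per cell, and cells of the 7 libraries shared at most 40 barcodes. Gene positions and 3′ UTRs came from GENCODE M21, and a 3′ UTR was found for 80.7% of symbols.

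All 10 members are named. Of the pathway list, the 3 highest and 3 lowest ratios over the XY control among genes with at least 200 UMIs are named, and for likeness the 3 nearest genes per member were sought. Sox9 was fixed for the split by its UMIs. Members and lists were chosen with earlier results of these data known. Alternatives were other scalings (TMM from edgeR 4.0.16 among them), priors, minimum counts, thresholds, cell limits, runs and thinning depths. Protein sequences were not used here, and 1 further seed match is not reported here.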

Additional observations from a re-analysis of the deposited data

Results flagged for a closer look

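In 9 of 74 pairs of a member and a cell type, the ratio over the XY control lay on one side of 0 in the E11.5 KO and on the other in the E11.75 KO, with both counting intervals clear of 0. The difference itself was not tested, both ratios share the XY control, and the E11.75 KO also differs in stage. The share of all genes that changed side in this way was not computed, so the count is not read as a result about the members. Of these pairs 5 were in mesonephric tubules. Wnt4 stood at 1.01 and then -0.36 there, Wnt6 at -2.02 and then 0.74, and Lgr4 at 0.62 and then -0.33. Rnf43 stood at -0.81 and then 0.40, and Axin2 at -0.57 and then 0.79. The first tubule cluster held 31.3% of tubule cells in the XY control, 4.78% in the E11.5 KO and 33.4% in the E11.75 KO.

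Axin2 stood at -0.38 and then 0.38 in mesonephric epithelium and at -0.35 and then 0.23 in mesonephros. Lgr4 in mesonephros stood at 0.12 and then -0.44. Wnt4 in SLCs stood at 0.21 and then -0.20.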

How the results depend on the processing

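No paired analysis was possible because each group is 1 sample. Ratios are limited by the counts of Lgr5, Axin2, Znrf3 and Rnf43 and by the lack of replicates, which no interval covers. The list below holds only larger relative changes of a count, or changes to or from none, so an unlisted count need not be the same. Relative to like 3′ UTR length, Rspo1 at 0.64 in the E11.75 KO passed the threshold in this way. Znrf3 at 0.45 between the KO samples fell inside it. TMM, a prior of 5 and totals without abundant gene classes changed no count enough to be listed.

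Counts are for the members (higher and lower 1 and 1 in the E11.5 KO, 2 and 1 in the E11.75 KO, 2 and 1 in the XX control, 3 and 1 between KO samples) and for the whole list of 92 genes (7 and 2, 15 and 2, 4 and 9, 13 and 2). Without centring, the E11.5 KO had 2 members and 5 list genes lower, the E11.75 KO had 0 and 0 lower, the XX control had 1 and 2 higher, and between KO samples 0 members were lower, 25 list genes higher and 0 lower. Relative to like 3′ UTR length, 2 members were higher in the E11.5 KO, 0 members and 4 list genes lower in the E11.75 KO, 0 members lower in the XX control, and 0 members and 5 list genes lower between KO samples. With the mean of CPM over cells, 0 members and 0 list genes were lower in the E11.75 KO, 0 members in the XX control and 4 list genes between KO samples. Cells with at least 5000 UMIs gave 2 members higher in the E11.5 KO, and cells under 30000 UMIs gave 0 members lower and Sfrp2 at -0.93 in the XX control. Run 1 gave 2 members and 5 list genes lower in the E11.5 KO and 4 members higher in the XX control. Run 2 gave 3 members higher, 0 lower and 1 list gene lower in the E11.5 KO, 0 members and 1 list gene lower in the E11.75 KO, 0 members lower and 2 list genes higher in the XX control, and 4 list genes lower between KO samples. With Sertoli cells added, the E11.5 KO had 3 members higher and 2 lower and 12 and 7 list genes, the E11.75 KO had 5 members higher and 6 list genes lower, and the XX control had 4 and 2 members and 8 and 16 list genes. Without cells with a Sox9 UMI, chosen after seeing the data, 1 list gene was lower in each KO sample, and the XX control had 1 member higher, 0 lower and 2 list genes higher. At a threshold of 1, the E11.5 KO had 0 members higher and 1 and 1 list genes, the E11.75 KO had 1 and 0 members and 6 and 0 list genes, the XX control 0 and 0 members and 0 and 1 list genes, and the KO samples 1 and 0 members and 2 and 0 list genes. A minimum of 50 UMIs gave 5 list genes lower between KO samples. A minimum of 500 UMIs gave 0 members lower in all 4 comparisons, 1 member higher between KO samples, 3 and 1 list genes in the E11.5 KO, 0 lower in the E11.75 KO, 2 and 4 in the XX control and 1 lower between KO samples. No minimum gave 13 and 17, 27 and 14, 12 and 25, and 31 and 12 list genes. The causes were not tested.

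Shares with a Wnt4 UMI, in the order XY control, the E11.5 KO, the E11.75 KO and XX control, were 52.5%, 62.1%, 62.2% and 71.3% at 2000 UMIs, 70.2%, 79.9%, 82.3% and 90.0% at 5000, and 69.5%, 79.2%, 80.5% and 98.6% unthinned. Lgr5 shares were 7.64% in the XY control and 7.79% in the E11.75 KO at 5000 UMIs, 3.74% in the E11.75 KO and 1.14% in the XX control at 2000, and 7.74%, 3.14%, 8.01% and 13.6% unthinned. The Wnt4 ratio by a Sox9 UMI in the E11.5 KO was -0.56 at 5000 UMIs and -0.26 unthinned. By Spearman's rho, 9 nearest genes were shared. Of the member ratios under alternatives, 80 moved beyond the counting interval and 400 did not. None that was past the threshold in the main setting changed sign. Lgr5 in the E11.75 KO over the XY control, at 0.01 in the main setting, stood at -0.64 with Sertoli cells added. It kept its sign in 8 of 13 settings.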
